A study of Mus musculus with 9 samples.

Results

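The m6A peaks described here were those with a summit in 1 protein-coding gene and no other, where the body of that gene, from its first to its last annotated base, spanned 3000 bp or less. A summit is the base at which the peak caller placed the maximum of the enrichment. In the first wild-type replicate 478 of 22531 peaks met this rule, and in the second 158 of 5040, which made 636 of 27571 peaks in all. They were 2.12% and 3.13% of the 2 lists. The genome holds 3412 such short coding genes among 21900, or 15.6% of coding genes. A further 85 summits of replicate 1 and 25 of replicate 2 also lay in a short gene but fell in another coding gene as well, and these were left out.

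The study profiled m6A in mouse embryonic stem cells by immunoprecipitating fragments of messenger RNA with an antibody to m6A and sequencing them beside input RNA. All cells came from a background labelled Rosa26:CRE, Bir ligase, and were wild type, Mettl3 knockout or Zc3h13 knockout. The wild-type immunoprecipitations, WT_IP replicates 1 and 2, are the libraries with the peak lists used here, and the other 7 of the 9 libraries (the wild-type input, and the inputs and immunoprecipitations of both knockouts) were not analysed here, so no comparison between genotypes was made. Nothing in the sources used here says that the replicates came from separate cultures, and the spread between them may be technical. The peak names in the list of replicate 1 carry no mention of wild-type cells. The number of reads behind each list is unknown, and replicate 1 had the far longer list, so each value is given for both replicates.

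N6-methyladenosine (m6A) is the most abundant internal modification of messenger RNA. It is written in the nucleus by a complex built around the methyltransferase Mettl3, with accessory proteins such as Zc3h13, at adenosines within a short consensus whose common core is GGAC, and it is read by proteins that shorten the life of the transcript or change its translation. In most messenger RNAs it gathers in long internal exons and around the stop codon, and splicing keeps it away from exon junctions. Genes with short bodies mostly have few introns or none, and they include many transcription factors, rapidly induced genes, histones, olfactory receptors and interferons.

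Sequence was available only around annotated gene starts, where few of these summits lay. Of the 478 and 158 summits, 9 and 2 had all 30 bases around them inside such a stretch, and GGAC, searched on the gene's strand, was found in 4 of 9 and in 2 of 2. The 2 of replicate 2, in Antkmt and Lipt2, were the same bases as in replicate 1. The same 4 letters were found in 11.4% of 32851 annotated starts over a stretch of the same length, bases 16 to 45 after the start, and GGACT, which contains GGAC, in 3.14%. The stretches around the summits were not confined to those bases. The summit of Lipt2 lay at base 1112 of its gene, in the start window of another gene, and that of Rangrf at base 1355. The share over annotated starts is thus not a matched background. The 4 genes that held GGAC are shown because the motif is the core of the m6A consensus. They are in mm10 as RefSeq gives it, 5′ to 3′, with GGAC in capitals: Antkmt at chr17:25792742-25792771 on the minus strand, Lipt2 at chr7:100160373-100160402 on the plus strand, Rangrf at chr11:68973816-68973845 on the minus strand and Use1 at chr8:71367014-71367043 on the plus strand.
Antkmt: ggcggctggaaGGACgtcctctgtggtttg
Lipt2: cacgttaatctctgaGGACagccccagctg
Rangrf: gtcccattgcttagtaGGACgggaggaggt
Use1: ataatcggctgttcagggcctacatGGACt

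The summits of Antkmt, which encodes a lysine methyltransferase of the mitochondrial ADP/ATP carrier, and of Lipt2, an enzyme of lipoate attachment, were placed on the same base in both replicates. In each of them the capitals take in the summit base itself. Antkmt was enriched 6.02-fold over input in replicate 1 and 12.7-fold in replicate 2, and Lipt2 7.64-fold and 5.78-fold. Rangrf and Use1 had a peak with sequence in replicate 1 only, at 4.35-fold and 3.96-fold, and Use1, which encodes a SNARE of the endoplasmic reticulum, was the single one with GGACT. A match of these letters is a description and does not show that the base is methylated.

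Short coding genes held a summit far less often than longer ones. In replicate 1 a summit was found in 382 of 3412 short genes, or 11.2% (95% exact binomial interval 10.2 to 12.3), against 41.9% of 18488 longer genes and 37.1% of all coding genes. In replicate 2 it was found in 135 short genes, or 3.96%, against 16.8% of longer genes and 14.8% of all coding genes. Both replicates had a summit in 130 short genes, or 3.81% (3.19 to 4.51), against 16.0% of longer genes (15.5 to 16.5) and 14.1% of all. Such intervals cover counting error only, genes are not replicates, and no test was run on these shares. Replicate 1 alone reached 252 short genes, replicate 2 alone 5, and 3025 had a summit in neither. Of the short genes of replicate 2, 96.3% were also in replicate 1, and of those of replicate 1, 34.0% were also in replicate 2. For longer genes the latter share was 38.2%.

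The share grew steeply with length inside the short class. Among genes of up to 1000 bp, 26 of 1585 had a summit in replicate 1, and 2, or 0.126%, in both replicates. Above 1000 and up to 2000 bp both replicates reached 38 of 1011 genes, or 3.76%. Above 2000 and up to 3000 bp they reached 90 of 816, or 11.0%, which is close to the 12.7% of the next class, up to 4000 bp, and the 12.8% of the class after it, up to 10000 bp. Genes of over 100000 bp stood at 18.9%. Bodies of up to 2000 bp thus stood furthest below longer genes.

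**Figure D1:**
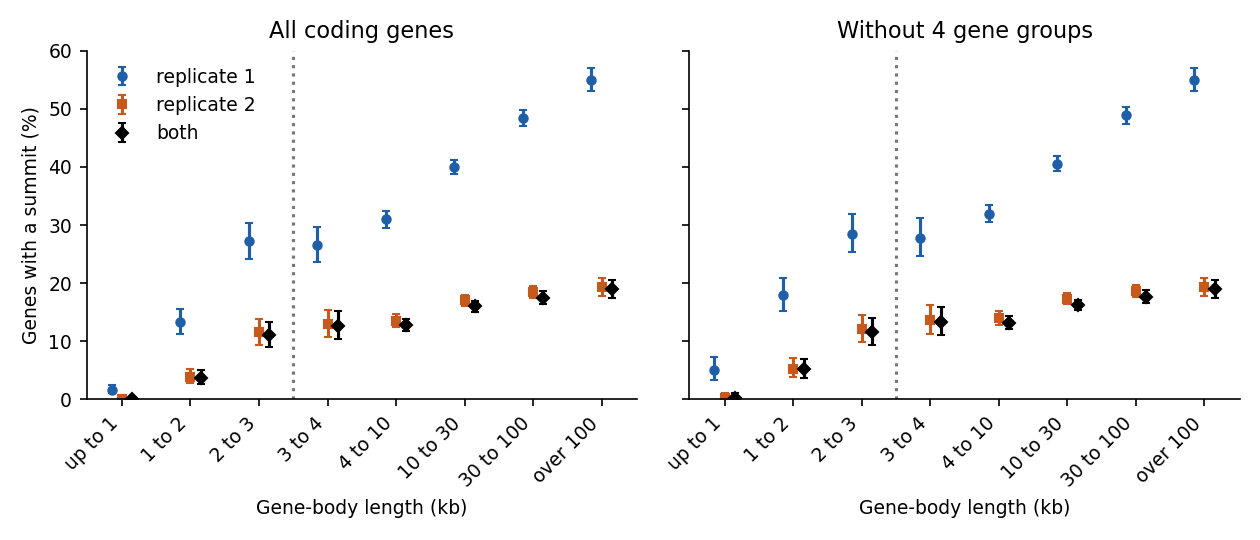
Percent of coding genes with a summit inside that gene only (vertical axis) by length of the gene body in kb (horizontal axis), in replicate 1, in replicate 2 and in both, with 95% exact binomial intervals, for all coding genes (left) and without sensory receptor, keratin-associated and cornified envelope, defensin and interferon genes (right). The dotted line marks 3000 bp. The share in both replicates climbs from 0.126% below 1000 bp to 11.0% between 2000 and 3000 bp and 18.9% above 100000 bp.

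Large families that serve other tissues filled much of the short class. Olfactory receptors, the odorant sensors of the nose, made up 977 short genes, of which 2 had a summit in replicate 1 and 1 in both. None of 265 vomeronasal, taste and trace amine receptors, of 87 keratin-associated and cornified envelope genes and of 65 defensins and interferons had a summit in either list. Together these 4 groups were 1394 genes, or 40.9% of short genes. Whether they are expressed in these cells was not tested, since no RNA level was available here. Among the other 2018 short genes 18.8% had a summit in replicate 1, 6.64% in replicate 2 and 6.39% in both, beside 42.6%, 17.1% and 16.3% of longer genes outside the same groups. The gap was thus smaller without them, and it was present in both replicates.

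A longer body has more room for a summit, so summits were also counted per length. Short genes held 9.87 summits per 100 kb of gene body in replicate 1 and 3.26 in replicate 2, while longer genes held 1.76 and 0.419. The difference was 5.48 ± 3.73 (SD, n = 2) summits per 100 kb. The shortest class, up to 1000 bp, held 1.94 and 0.150, and the class from over 3000 to 4000 bp held 11.4 and 4.83, so the density was highest between 2000 and 3000 bp, at 14.2 and 5.57, and lower on both sides. Against longer genes of at most 10000 bp alone, which held 8.48 and 3.01, the difference was 0.823 ± 0.810. Gene bodies include introns, which are absent from mature messenger RNA, and exon lengths were not available here. Most short genes that were reached held 1 summit, with 296 of 382 in replicate 1 and 115 of 135 in replicate 2, and the others held 2 (76 and 17 genes) or 3 (10 and 3 genes).

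Transcription factors that direct development were among the genes reached. Among short forkhead factors 8 of 12 had a summit in replicate 1 and 3 in both, and among short Sox factors 4 of 5 and 2, beside the 11.2% and 3.81% of all short genes. Short genes outside the sensory, cornified envelope and immune groups stood at 18.8% and 6.39%. Genes above 2000 and up to 3000 bp stood at 27.2% and 11.0%. Longer members were also often reached, with 22 of 32 forkhead factors in replicate 1 and 8 in both, and 13 of 14 Sox factors and 7. The basic helix-loop-helix lineage factors, which drive neural, muscle and mesodermal fates, had 11 of 25 and 3. The other homeobox and zinc finger lineage factors had 7 of 11 and 2, the Hox genes 4 of 14 and 0, and the POU factors 1 of 2 and 0. Longer helix-loop-helix factors had 9 of 22 and 4, and the other longer homeobox and zinc finger factors 55 of 81 and 20. Longer Hox genes had 9 of 25 and 3, and longer POU factors 9 of 13 and 5. Among all longer genes the shares were 41.9% and 16.0%. These groups were assembled with results of these data known, and no test of a group was run.

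Among the forkhead genes in both lists Foxq1 had the strongest peaks, which were enriched 14.5-fold over input in replicate 1 and 25.3-fold in replicate 2. Foxd3, a factor of pluripotent cells and the neural crest, had lower values of 5.97 and 5.32, but its replicate 1 peak was 2529 bp wide and its −log10 q, the caller's significance adjusted over the genome, was 219. Foxe1, needed for the thyroid, stood at 6.48 and 5.95, where a second replicate 1 peak of 5.86-fold, not the highest, overlapped the replicate 2 peak. Foxd1 and Foxc2 had high values of 23.9 and 19.4 in replicate 1 and no summit in replicate 2. High enrichment in replicate 1 thus did not by itself bring a gene into the list of replicate 2.

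Sox18, a factor of blood and lymph vessels, had 12.9-fold and 11.6-fold peaks in replicates 1 and 2. Sox3, which acts in neural progenitors, had 13.4-fold and 8.92-fold peaks. Among the helix-loop-helix factors, Neurog3, which specifies the endocrine pancreas, stood at 17.0 and 11.1, Msc at 8.08 and 9.80, and Twist1, a mesodermal factor, at 8.60 and 7.19. Olig1 and Olig3, factors of the developing nervous system, reached 21.0 and 20.7 in replicate 1 and had no summit in replicate 2. Of the homeobox genes, Nkx2-9 gave 8.63 and 7.76 at its highest peaks, with a second replicate 1 peak of 5.82-fold on the summit base of replicate 2, and Gsx1 gave 3.95 and 5.61. The Hox genes with a peak were Hoxb13 (7.43-fold), Hoxd9 (6.80), Hoxd1 (6.48) and Hoxc12 (5.51), all in replicate 1.

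Of 4 short genes listed as stem cell genes, 2 had a summit in replicate 1 and none in both, beside 12 and 2 of 20 longer ones. The shares were 11.2% and 3.81% over all short genes and 41.9% and 16.0% over all longer genes. Short genes outside the sensory, cornified envelope and immune groups stood at 18.8% and 6.39%. Sox2, a core pluripotency factor, had a peak of 1.27-fold with a −log10 q of 5.35 in replicate 1, and Klf2, a factor of naive pluripotency, had 1.69-fold with a −log10 q of 27.7. Neither had a summit in replicate 2. The other 2 short stem cell genes, Utf1 and Dppa5a, had no summit in either list. The enrichments of Sox2 and Klf2 were below the 5.19-fold median of short-gene peaks in replicate 1.

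Rapidly induced and feedback genes had a summit in 14 of 17 short members in replicate 1 and in 5 in both, beside 11.2% and 3.81% of all short genes. Short genes outside the sensory, cornified envelope and immune groups stood at 18.8% and 6.39%. Longer rapidly induced and feedback genes had a summit in 25 of 27 and in 13, beside 41.9% and 16.0% of all longer genes. Socs1, an inhibitor of cytokine signalling, stood at 7.69 in replicate 1 and 10.4 in replicate 2. Zfp36, whose protein recruits the decay machinery to AU-rich messenger RNAs, stood at 3.00 and 11.6. The bZIP factor gene Cebpb gave 7.11 and 3.64, Ier5l gave 3.96 and 2.41, and Junb, a subunit of AP-1, gave 2.80 and 2.98. In replicate 1 the other members spanned a wide range, from Ier2 at 1.51 and Jund at 1.77 to Cebpd at 10.2 and Egr4 at 15.8. Dusp1, a phosphatase that ends MAP kinase signalling, had 3.91-fold enrichment over 833 bp, and Rhob, a small GTPase, had 3.85-fold over 1876 bp.

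Of the small signalling groups, the connexins had a summit in 1 of 3 short members in replicate 1 and in 1 in both, the frizzled receptors in 2 of 2 and 1, the secreted signals in 2 of 4 and 1, and the Id and Hes repressors in 2 of 6 and 1. All short genes stood at 11.2% and 3.81%, and those outside the sensory, cornified envelope and immune groups at 18.8% and 6.39%. Longer connexins had 8 of 17 and 4, and longer frizzled receptors 8 of 8 and 6. Longer secreted signals had 29 of 50 and 14, and longer Id and Hes repressors 5 of 7 and 0. All longer genes stood at 41.9% and 16.0%. The short members with no summit in either list were the connexins Gja10 and Gje1, the growth factors Fgf21 and Fgf22, and Hes1, Hes5, Id1 and Id3. Nog, which encodes the BMP antagonist Noggin, gave 14.7 and 17.4, and Gja4, the gap junction protein connexin 37, gave 17.9 and 19.0. Of the frizzled receptors for Wnt, Fzd9 gave 9.32 and 6.79, and Fzd10 gave 7.73 in replicate 1 alone. Inhbe, an activin subunit, had 29.8-fold enrichment in replicate 1 and no summit in replicate 2. The repressor gene Hes6 was low in both replicates, at 2.53 and 3.54, and Id2 had 4.03-fold enrichment in replicate 1 only.

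Short genes of basic cell machinery differed from group to group, beside the 11.2% of all short genes in replicate 1 and the 3.81% in both. None of 20 oxidative phosphorylation genes, their assembly factors included, had a summit in either list, and 1 of 39 cytosolic ribosomal protein genes did, in replicate 1. That gene was Rpl10l, a retrogene copy of Rpl10, at 1.50-fold. Of 13 mitochondrial ribosomal protein genes 4 had a summit in replicate 1 and none in both, from 1.67-fold at Mrpl34 to 3.23-fold at Mrps26. The heat shock group had 3 of 10 in replicate 1 and 1, Hspb6, in both, at 7.58 and 8.65 at its highest peaks, with another replicate 1 peak of 3.19-fold whose summit lay 4 bp from that of replicate 2. Hspa1a and Hspa1b had 14.0-fold and 14.5-fold peaks in replicate 1, but they are near-identical copies and their reads may not be separable. Among longer genes, 41.9% of which had a summit in replicate 1, the counts were 1 of 47 cytosolic ribosomal, 8 of 72 oxidative phosphorylation, 14 of 65 mitochondrial ribosomal and 13 of 29 heat shock genes.

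Histone genes, many of which are copied into messenger RNA in dividing cells, had a summit in 11 of 94 short members in replicate 1 and in 1 in both, beside the 11.2% and 3.81% of all short genes. H2bc21 was the one in both, at 10.1-fold and 5.74-fold. The others ranged from H1f10 at 1.59-fold to H2bc9 at 7.40-fold. Most replication-dependent histone messenger RNAs end in a stem loop and lack a poly(A) tail, and the RNA here was selected on oligo-dT. The part of that selection in these counts was not tested, and the core histone genes are close copies among which reads may not be separable.

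**Figure D2:**
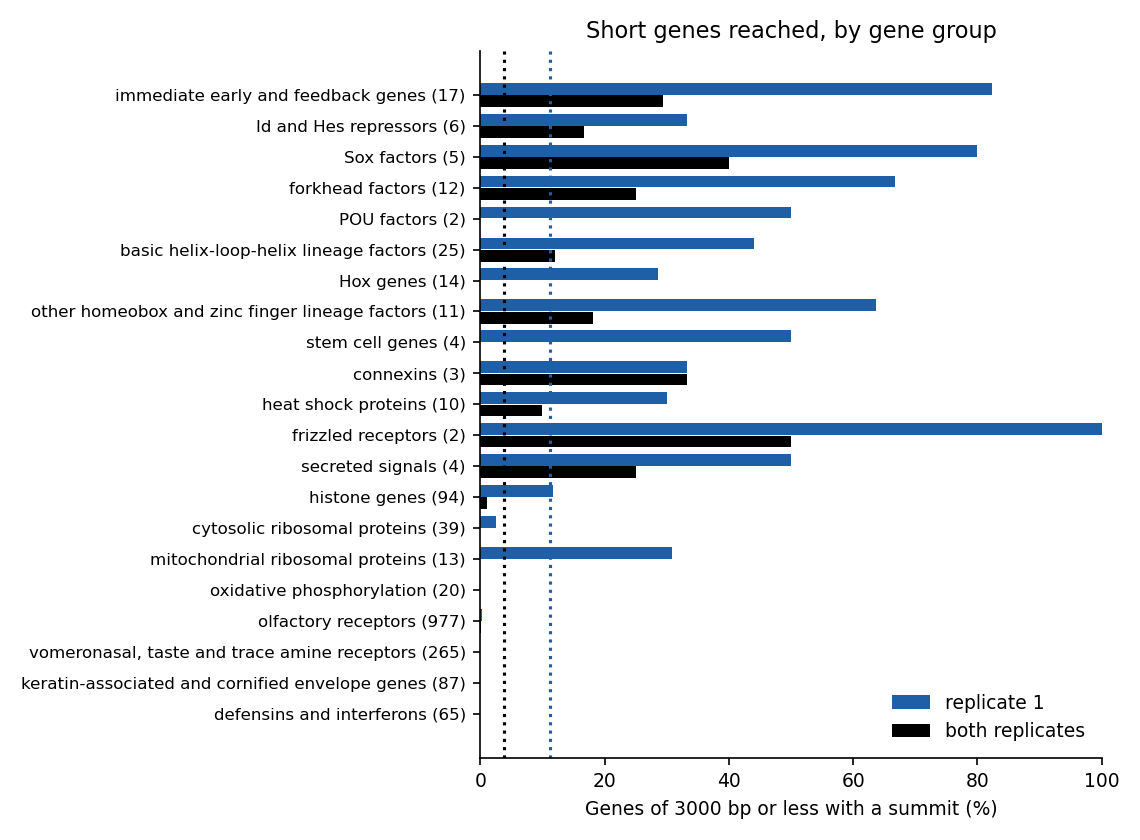
Percent of genes of 3000 bp or less with a summit in replicate 1 (blue) and in both replicates (black), for each of 21 gene groups with its number of short genes in brackets. Dotted lines give the values over all short genes, 11.2% in replicate 1 and 3.81% in both. Without the sensory receptor, keratin-associated and cornified envelope, defensin and interferon genes these values were 18.8% and 6.39%. Rapidly induced, Sox and forkhead genes lie to the right of the lines and sensory receptor, cornified envelope and oxidative phosphorylation genes at or near 0, with small numbers in several groups.

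The 10 short genes with the highest enrichment in both replicates were Gja4, Fam43b, Nog, Foxq1, Sp5, Kctd11, Sox18, Gltpd2, Neurog3 and Gpr27. The peak of Gja4 covered chr4:127311504-127313154 in replicate 1, and its summit was placed on the same base in replicate 2, 438 bp before the end of the body. Kctd11, whose protein restrains Hedgehog signalling, had 1 peak of 2205 bp with 21.8-fold enrichment and a −log10 q of 271 in replicate 1. In replicate 2 the same stretch was split into 3 peaks of 1012, 453 and 344 bp, the highest at 12.5-fold. Fam43b likewise had 1 peak of 2411 bp at 23.0-fold, which covered 95.6% of its body, and in replicate 2 had 2 peaks at 16.2-fold and 12.8-fold. Sp5, a zinc finger factor induced by Wnt signalling, had 15.4-fold and 12.9-fold peaks with summits 1 bp apart, at 1438 and 1437 bp from its start.

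Gltpd2, named for a glycolipid transfer domain, stood at 11.2 in replicate 1 and 12.8 in replicate 2, and the orphan receptor gene Gpr27 at 13.6 and 11.0. By −log10 q the leading genes also included Fndc10 (128 and 33.6), Prr19 (77.2 and 26.4), Adm2, a peptide hormone gene (139 and 21.3), and Socs1 (179 and 19.6). The medians of short-gene peaks were 37.9 and 8.91, and genes chosen by this rank lie above them because of that choice. The −log10 q grows with reads and cannot be compared between the lists, whose depths are unknown.

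**Figure D3:**
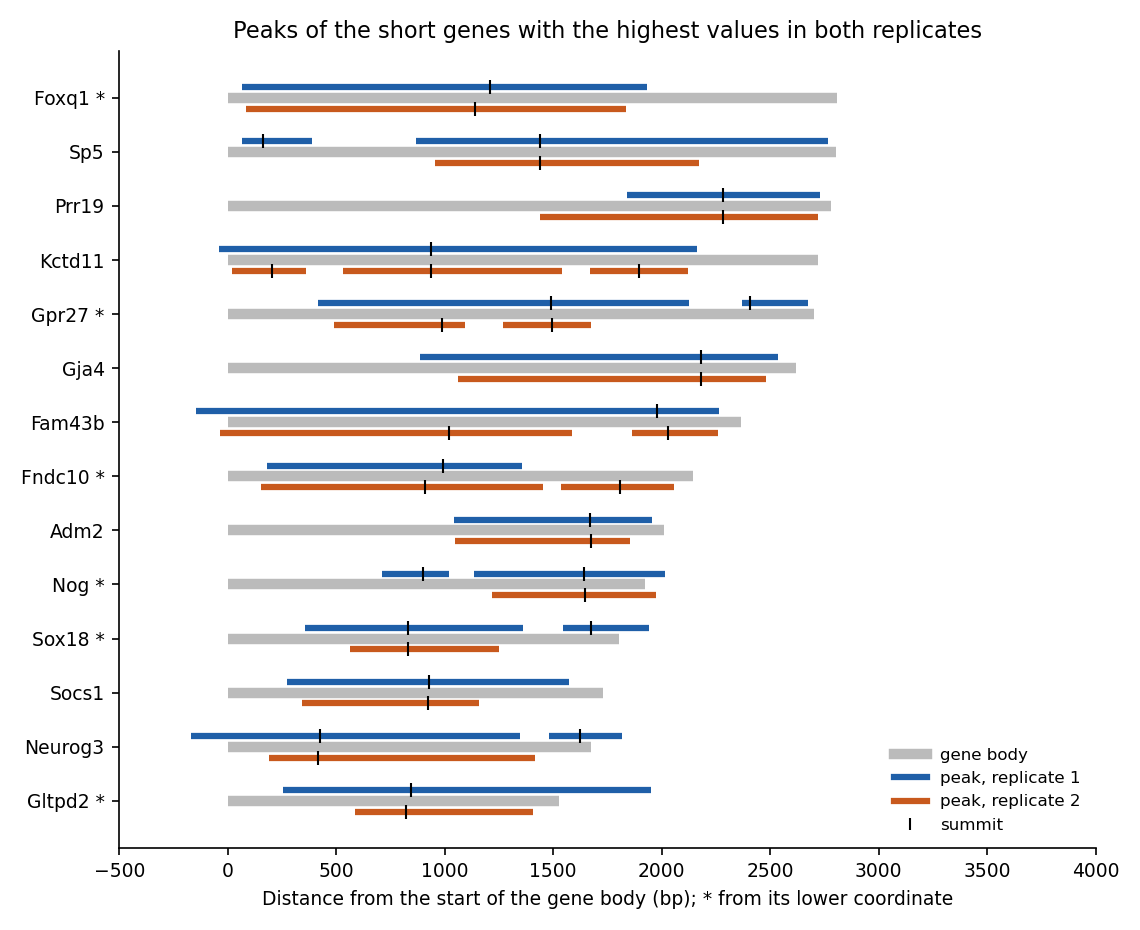
Peaks along the gene bodies of 14 short genes with the highest fold enrichment or −log10 q in both replicates, with distance in bp from the start of the body, or from its lower coordinate where the strand was not available (asterisk). Grey bars are gene bodies, blue and orange bars are peaks of replicates 1 and 2, and ticks are summits. Peaks cover much of most bodies, and the single replicate 1 peaks of Kctd11 and Fam43b correspond to 3 and 2 separate peaks in replicate 2.

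The smallest gene bodies reached in both replicates were those of Olfr1344 (966 bp), Ufsp1 (996 bp), Prr23a1 (1059 bp), Cysrt1 (1079 bp) and Rnf113a1 (1246 bp). Ufsp1, a protease of the UFM1 pathway, stood at 4.51 and 4.71, and Rnf113a1, a spliceosomal RING protein, at 4.75 and 8.22. Cysrt1 gave 11.1 and 9.90, Prr23a1 gave 10.6 and 6.22, and the olfactory receptor Olfr1344 gave 11.7 and 6.16. Their summits agreed within 17 bp between replicates. The genes with the most peaks over both lists, each with 4 or more, were Msc, Kctd11, Chst14, Gpr27 and Hspb6. Chst14, a sulfotransferase of dermatan sulfate synthesis, had 1 peak of 1962 bp in replicate 1 and 3 peaks of 300 to 676 bp in replicate 2.

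As 1 class, peaks in short genes were wider than those in longer genes. In replicate 1 their median width was 611 bp against 446 bp, and in replicate 2 it was 496.5 bp against 448 bp. The difference was 107 ± 82.4 bp (SD, n = 2), positive in both replicates, and 2 replicates cannot give an exact p below 0.5. Peaks of 1000 bp or more were 26.2% of short-gene peaks in replicate 1 and 15.2% in replicate 2, against 14.1% and 5.68% in longer genes. Against longer genes of at most 10000 bp, whose medians were 531.5 and 470 bp, the difference was 53.0 ± 37.5 bp. In genes of up to 1000 bp, with 26 and 2 peaks, the order was the reverse, with medians of 389.5 and 335.5 bp. The narrowest peaks were 298 bp in replicate 1 and 300 bp in replicate 2 in both length classes.

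The gap in width was largest among the strongest peaks. When each list was divided into 4 equal parts by −log10 q, short-gene peaks of replicate 1 were 50.0, 72.5, 130 and 256 bp wider than those of longer genes from the lowest part to the highest. In replicate 2 the differences were 29.0, 30.5, 16.0 and 198.5 bp. All 8 differences were above 0, so the greater width was present in each part of both lists. Significance still varies inside a part and was not matched further. The split was made against all longer genes, not against those of at most 10000 bp alone.

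**Figure D4:**
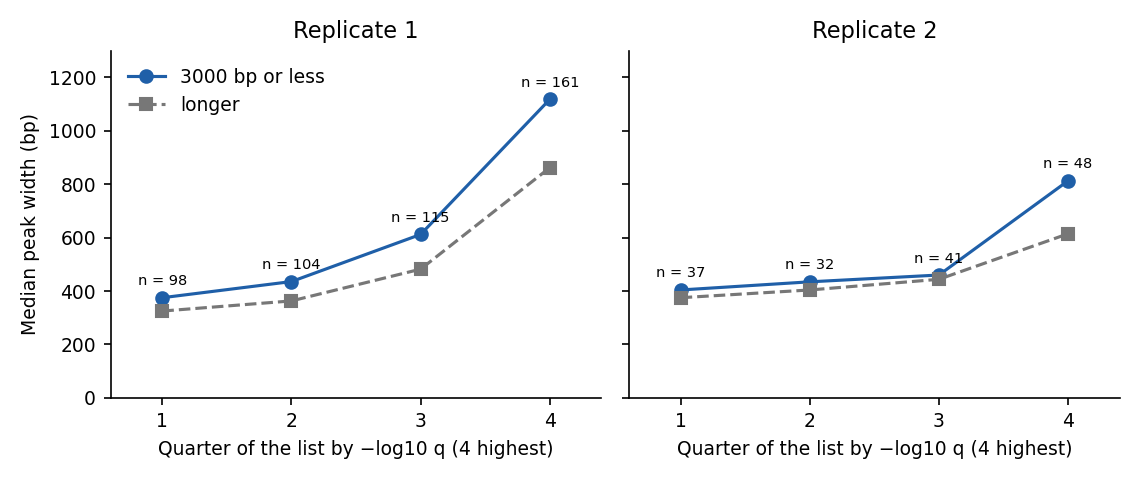
Median peak width in bp (vertical axis) in the 4 parts of each peak list ranked by −log10 q (horizontal axis, 4 being the highest), for genes of 3000 bp or less (blue circles, with the number of peaks) and longer genes (grey squares). The short-gene line is above the other in every part of both lists, by 256 bp in replicate 1 and 198.5 bp in replicate 2 at the highest part.

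A peak in a short gene took up a large share of the gene. The median peak overlay 30.2% of the gene body in replicate 1 and 24.4% in replicate 2, compared with 1.24% and 1.74% in longer genes. This share divides by a body length that the rule keeps at 3000 bp or less, so the contrast was largely fixed in advance. In replicate 1, 26.8% of the peaks ran past an end of the body, and in replicate 2, 5.06%, against 3.94% and 1.66%. Summed over its peaks, the median reached short gene was covered over 42.7% of its body in replicate 1 and 28.4% in replicate 2. At least 50% was covered in 158 of 382 genes and 27 of 135, and at least 90% in 15 and 0. Cebpb shows the spread between replicates, with 85.7% of its body under a peak in replicate 1 and 20.2% in replicate 2 around summits 5 bp apart.

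Summits in short genes lay towards the middle of the body, and those in longer genes towards an end. As a measure that needs no strand, the distance to the nearer end was divided by body length, which gives 0 at an end and a median of 0.25 for evenly spread summits. The medians were 0.292 and 0.304 in short genes and 0.129 and 0.0916 in longer genes. The difference was 0.188 ± 0.0354 (SD, n = 2), and against longer genes of at most 10000 bp it was 0.0987 ± 0.00301. In bp the order was the reverse, and summits lay closer to the nearer end in short genes.

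The strand was available for 2810 of the 3412 short genes and for 368 and 114 of the peaks. Measured from the start of the gene, the median summit of short genes lay at 0.519 and 0.559 of the body, and that of longer genes at 0.772 and 0.880. The last 10% of the body held 7 short-gene summits, or 1.90%, in replicate 1 and 1, or 0.877%, in replicate 2, against 32.6% and 45.5% of the summits of longer genes. For longer genes of at most 10000 bp these shares were 13.7% and 14.9%. That 10% spans fewer bp in a short gene than in a longer one, so the shares are not over equal distances. Within 500 bp of the end the order was the reverse, with 22.0% and 18.4% of short-gene summits and 4.13% and 7.34% of all longer-gene summits.

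In bp from the end of the body, the median short-gene summit lay 925.5 bp away in replicate 1 and 863.5 bp in replicate 2, against 6533.5 and 2564 bp in longer genes. For longer genes, 33.6% and 55.2% of summits lay in the last 3000 bp, and their medians there, which this restriction keeps below 3000 bp, were 1358 and 1221 bp. Within 500 bp of the end were 22.0% and 18.4% of short-gene summits and 12.3% and 13.3% of those longer-gene summits. Among short-gene summits with a known strand, none was nearer to the end than 46 bp in replicate 1 and 261 bp in replicate 2. Exons, coding regions and stop codons were not annotated in the table used here, so a summit could not be assigned to an untranslated region or to the coding sequence.

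**Figure D5:**
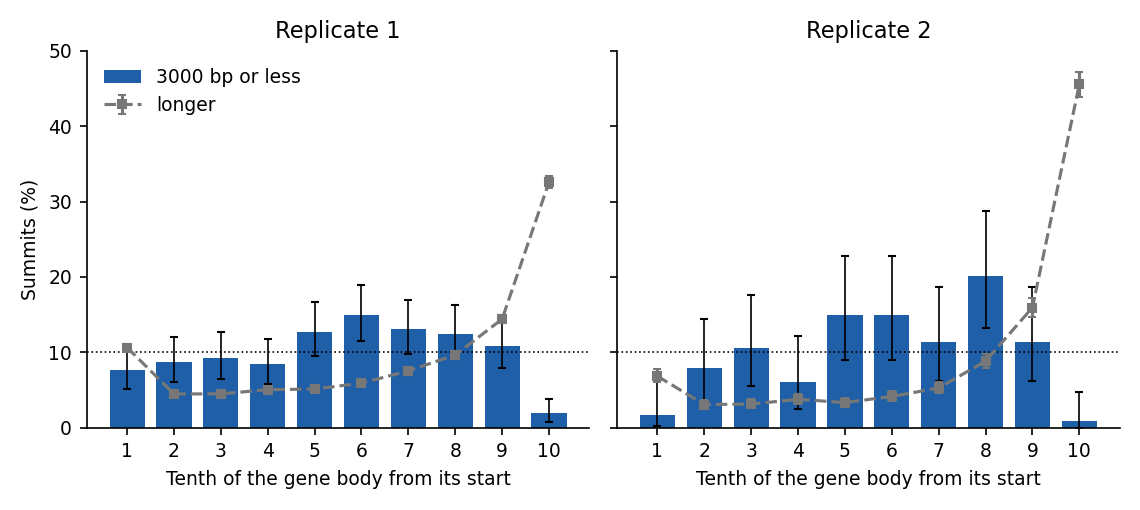
Percent of summits (vertical axis) in each of 10 equal parts of the gene body counted from its start (horizontal axis), for genes of 3000 bp or less (bars) and longer genes (grey squares) with a known strand, with 95% exact binomial intervals. The dotted line is an even spread, 10% in each part. Longer genes place 32.6% and 45.5% of summits in the last part and short genes 1.90% and 0.877%. Longer genes of at most 10000 bp, not drawn apart, place 13.7% and 14.9% there. Each part spans fewer bp in a short gene than in a longer one.

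Enrichment was compared in the same way. Short-gene peaks had median enrichments of 5.19-fold and 6.58-fold in replicates 1 and 2, and those of longer genes 5.16-fold and 6.28-fold. The difference was 0.164 ± 0.193 (SD, n = 2), which is smaller than the spread between replicates. The value depended on what was compared. With a limit of 2000 bp it was -0.318 and with 4000 bp -0.0493, while against longer genes of at most 10000 bp it was 0.376 ± 0.00534, for peaks of at least 4-fold enrichment 0.640, and with equally long lists 0.575.

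Peaks in short genes were found again in the other replicate somewhat more often. Of the 478 peaks of replicate 1, 135 shared 1 bp or more with a replicate 2 peak (28.2%, 24.2 to 32.5), against 20.4% in longer genes. Of the 158 peaks of replicate 2, 150 shared 1 bp or more with a replicate 1 peak (94.9%, 90.3 to 97.8), against 91.9%. The difference was 5.47 ± 3.39 percentage points (SD, n = 2). It shrank to 0.293 ± 2.74 points against longer genes of at most 10000 bp, with opposite signs in the 2 replicates, and turned to -4.51 under a stricter overlap, covering 50% of each peak. The short-gene peaks were also the wider ones, and the part of width in this overlap was not tested.

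The position of a peak was repeated more closely than its size. Over 153 pairs of overlapping peaks the median distance between summits was 11 bp, and in 110 pairs, or 71.9%, it was within 50 bp. In 132 of these pairs the peak of replicate 1 was the wider one, with medians of 1161 and 510 bp. In 122 of the 130 genes in both lists, the highest peaks of the 2 replicates overlapped, and in 7 of the other 8 genes another pair of peaks did. Over these 122 genes the fold enrichments had Spearman's rho of 0.449 across genes, which are not independent replicates, and the value was higher in replicate 1 in 57 of them. The ranks of single genes should be read with that spread in mind, as for Zfp36 at 3.00 and 11.6.

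The genes nearest the limit of 3000 bp are given as a description. Just inside it with a summit in both replicates were Kbtbd6 (2982 bp, 8.82-fold and 8.72-fold), Hgh1 (2991 bp, 2.70 and 9.23) and Tigd3 (2991 bp, 9.07 and 5.70). Just outside were Pusl1 (3002 bp, 2.28 and 4.75), Pou3f1 (3010 bp, 12.2 and 2.35), a POU factor gene, and Ccn1 (3015 bp, 5.95 and 5.34), which encodes a matricellular protein.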

How the data were processed

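Messenger RNA of mouse embryonic stem cells was selected on oligo-dT, precipitated with an antibody to m6A and digested with RNase T1 on the beads, and libraries were sequenced beside input. Per the submitters' processing notes the authors used Bowtie, SAMtools and MACS2 with mm10, versions not given, and the paper states default MACS2 parameters. Replicates were not pooled. The series holds 1 wild-type input library. The sources used here do not state which input each peak call used, nor the handling of duplicate reads and strand. If both lists were called against that 1 input, their enrichments share it and are not independent in that respect. The deposited lists hold, for each peak, a fold enrichment over input (a ratio), −log10 p and −log10 q values, and a score, which was not used. They hold no read counts, so depth is unknown and no value was adjusted for it.

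Summits were placed in the bodies of 21900 coding genes of RefSeq (GRCm38.p6, the assembly of mm10), printed from base 1. Strand came from RefSeq start windows. Shares have 95% exact binomial intervals, and differences are the mean ± SD over 2 replicates, with no test. The members, the 21 gene groups and the comparisons were chosen with earlier results of these data known. Genes were named by a rule: among genes in both lists, the 10 highest by fold enrichment and the 10 by −log10 q (lower replicate, overlapping peaks), the 5 shortest, the 5 with the most peaks, up to 4 examples per group (or 2 in replicate 1 only) and the 3 on each side of 3000 bp. Of the genes so named, 1 is not reported here. Other genes in the text were chosen after their values were seen. Python 3.11.15, pandas 2.3.3, numpy 2.4.6, scipy 1.17.1 and matplotlib 3.10.9 were used. Overlap code was tested on simulated data, with 0 differences over 600 peaks. Alternatives covered thresholds, list length, length limits, the genes compared and each replicate alone.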

Additional observations from a re-analysis of the deposited data

How the results depend on the processing

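Of 78 recalculations of the 7 main values, 54 stayed within the spread between replicates (for the count of genes, within 1.5 times; for the share of genes, within its counting interval), 20 moved by more and 4 turned sign. Some of the 54 could not have come out otherwise. For values averaged over 2 replicates, 1 replicate alone always lies within that spread. The count of short genes also could not change where only the longer genes compared were altered. The count of 130 short genes in both lists became 40 with a limit of 2000 bp and 233 with 4000 bp. The difference in genes reached in both lists, -12.2 percentage points, became -9.53 for peaks with −log10 q of at least 5, -8.78 for enrichment of at least 4, -7.83 with the list of replicate 1 cut to the number of peaks in replicate 2, -14.3 and -10.6 with limits of 2000 and 4000 bp, -8.94 against longer genes of at most 10000 bp, -9.87 without the sensory, cornified envelope and immune groups, and -13.4 for peaks within 500 bp of any gene. Against longer genes of at most 10000 bp the density difference was 0.823 summits per 100 kb, the folded position 0.0987, the recurrence 0.293 points and the enrichment 0.376. For enrichment of at least 4 the recurrence difference was 10.7 points and the enrichment difference 0.640, and with replicate 1 reduced they were 13.2 and 0.575. The values that turned sign were these: enrichment was -0.318 with a limit of 2000 bp and -0.0493 with 4000 bp, recurrence was -4.51 with an overlap of 50% of both peaks required, and distance to the nearer end in bp was -2155, by construction of the unit. The cause of the other changes was not tested.

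With 1 replicate alone the values ranged from 135 to 382 short genes, from -30.7 to -12.9 points, from 2.84 to 8.12 summits per 100 kb, from 48.5 to 165 bp in width, from 0.163 to 0.213 in position, from 3.08 to 7.87 points in recurrence and from 0.0275 to 0.301 in enrichment. Of 41 named genes in both lists, 34, 33 and 29 stayed in both with −log10 q of at least 5, enrichment of at least 4 and the reduced list. In the reduced list, Nog, Sox3 and Olfr1344 were among those lost. Restricting to genes with a curated transcript (-12.2 points), to the upper part of each list by −log10 q (156.5 bp in width) or to peaks of up to 1000 bp (0.173 in position) was chosen after seeing the data, and moved no value beyond its spread. No paired analysis was possible because peak lists of 1 group alone were analysed. Depth is unknown, and a short gene without a summit may lie below what either list could detect.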

Other observations

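The 5 short genes with a summit in replicate 2 alone were Slc50a1 (9.35-fold), Mid1ip1 (6.38), Ubl4a (6.09), Zfp414 (5.61) and Ctxn1 (4.52). None of their peaks overlapped a peak of replicate 1, although that list is the longer one. Slc50a1 encodes a sugar transporter and Mid1ip1 a regulator of fatty acid synthesis.

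In 8 of the 130 short genes in both lists the highest peaks of the 2 replicates did not overlap, and in 7 of them a lower peak of replicate 1 overlapped the peak of replicate 2. Ttc30b, a gene of the intraflagellar transport machinery, was 25.6-fold in replicate 1 and 5.30-fold in replicate 2 at summits 1386 bp apart, and another of its replicate 1 peaks, at 8.22-fold, had a summit 16 bp from that of replicate 2. The imprinted gene Mkrn3 gave 13.2 and 7.57, with another replicate 1 peak of 6.04-fold 5 bp from the replicate 2 summit. Tssc4 had no overlapping pair, and its summits lay 619 bp apart.

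Olfr1344 was the 1 olfactory receptor of 977 short ones with a summit in both lists. Its peaks were 610 and 353 bp wide with summits 1 bp apart. Olfr985 had a 3.72-fold peak of 338 bp in replicate 1 only.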
